A study of Mus musculus with 8 samples.

Results

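The genes of polyamine synthesis and catabolism were read in the ventral prostate of mice with and without an oncogenic transgene. They were chosen by name as Odc1, Srm, Sms, Azin1, Oaz1, Oaz2, Smox and Sat1, with every probe set whose annotation lists one of these 8 symbols and no other. A probe set is a group of short probes on an Affymetrix array that are summarised together into 1 value. The rule found 11 probe sets for 7 of the 8 genes, among 22626 probe sets in all. For Sms, all 3 probe sets also list the pseudogene Sms-ps, and 1 further probe set of Oaz1 also lists Oaz1-ps, so that these were not used. The transgenic group was 4 arrays from male FVB mice aged 8 weeks that carried the middle T antigen of polyoma virus (MT), a membrane-bound viral oncoprotein. They were compared with 4 arrays from wild-type male FVB mice of the same age, and the design contrasts normal prostate with cancer arising from MT expression. The labels name no promoter for the transgene and do not state that each array had its own animal. All p-values thus reflect variation between arrays, possibly technical alone.

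Polyamines are small positively charged molecules that bind nucleic acids and are needed for growth. Ornithine decarboxylase, encoded by Odc1, makes putrescine from ornithine, spermidine synthase (Srm) turns putrescine into spermidine, and spermine synthase (Sms) turns spermidine into spermine. Antizymes (Oaz1, Oaz2) bind ornithine decarboxylase and send it to the proteasome, and the antizyme inhibitor Azin1, which resembles the decarboxylase but lacks its activity, competes for them. Spermine oxidase (Smox) returns spermine to spermidine, and the acetyltransferase Sat1 marks spermidine and spermine for export or oxidation. The rodent ventral prostate is known for a high polyamine content and for a decarboxylase that depends on androgen.

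The synthesis enzymes that could be read, Odc1 and Srm, and the breakdown enzymes Smox and Sat1 differed between MT and wild type in opposite directions. Odc1, Srm and Azin1 were lower in MT, Smox and Sat1 were higher, and Oaz1 and Oaz2 did not pass the test. Of the 11 probe sets, 6 were lower and 2 higher at an adjusted p under 0.05 (limma, adjusted over 22626 probe sets), together 72.7%. Over all probe sets 37.8% passed, 19.7% lower and 18.1% higher in MT. Among the 11313 probe sets above the median level, which include all 11, 57.1% passed, so the share is read against that figure too. The members were chosen with earlier results of these data known, so a share above these figures is a description and no test. With 1 probe set a gene, 5 of the 7 genes passed, against 40% of 12393 genes, of which 19.3% were higher and 20.7% lower. The same 6 and 2 had MT values wholly below or wholly above the wild-type values, a separation seen at 37.5% of all probe sets, 19.4% downward and 18.1% upward. The median log2 difference of the 11 was -0.39, against -0.01 over all probe sets. With 1 probe set for each of the 7 genes it was -0.05, against -0.01 over all genes. Odc1 counts 3 times in the first of these medians and in the counts of probe sets, and Azin1 and Oaz2 count 2 times each. A fall of at least 2-fold that passed the test occurred at 4 of the 11 and at 1.97% of all probe sets, and a rise of that size at 1 of the 11 and at 2.56% of all. The 4 falls were the 3 probe sets of Odc1 and the 1 of Srm, so they stand for Odc1 and Srm alone.

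Promoter windows are shown for the member with the largest fall, Odc1, and for both members that rose, Smox and Sat1. Each runs 5′ to 3′ over 300 bases around the start of the gene in RefSeq's GRCm38.p6 table, which held windows for 6 of the 8 genes. Capitals mark the GC box GGGCGG or its reverse complement CCGCCC, the sequence that Sp1 family factors bind. The Odc1 window lies on the plus strand at chr12:17544623-17544922, the Smox window on the plus strand at chr2:131491612-131491911 and the Sat1 window on the minus strand at chrX:155216400-155216699.
Odc1: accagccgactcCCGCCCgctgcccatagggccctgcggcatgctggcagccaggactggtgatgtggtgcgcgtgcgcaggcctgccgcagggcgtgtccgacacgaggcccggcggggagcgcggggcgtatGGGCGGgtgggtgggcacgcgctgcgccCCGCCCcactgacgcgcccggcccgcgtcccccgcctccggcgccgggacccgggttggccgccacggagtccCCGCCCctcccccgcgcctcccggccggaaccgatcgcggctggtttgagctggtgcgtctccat
Smox: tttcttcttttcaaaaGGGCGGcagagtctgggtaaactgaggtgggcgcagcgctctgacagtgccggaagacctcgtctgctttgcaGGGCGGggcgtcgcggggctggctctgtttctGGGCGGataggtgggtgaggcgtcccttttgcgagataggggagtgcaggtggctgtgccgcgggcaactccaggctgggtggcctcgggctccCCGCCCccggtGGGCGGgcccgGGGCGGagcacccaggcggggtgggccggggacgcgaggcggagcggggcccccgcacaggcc
Sat1: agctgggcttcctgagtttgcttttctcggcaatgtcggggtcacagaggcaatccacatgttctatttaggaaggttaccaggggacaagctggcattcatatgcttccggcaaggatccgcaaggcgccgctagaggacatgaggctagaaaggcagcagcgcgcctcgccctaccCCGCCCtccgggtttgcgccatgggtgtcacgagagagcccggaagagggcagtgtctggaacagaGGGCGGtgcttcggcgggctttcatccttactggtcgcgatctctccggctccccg

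The Odc1 window held 4 GC boxes, the Smox window 6 and the Sat1 window 2, counted on both strands. A GC box was present in 35.7% of all 32851 windows of this length. The GC content was 78% in the Odc1 window, 71% in the Smox window and 60.3% in the Sat1 window. Neither the E-box CACGTG, found in 7.15% of all windows, nor the TATA box TATAAA, found in 13.6%, was present in any of the 3, on either strand. Of the antizyme genes that did not pass, Oaz2 had 4 GC boxes in its window and Oaz1 none. The windows shown are rich in G and C, since 98.1% of all windows had a lower GC content than that of Odc1, 91.8% than that of Smox and 71.4% than that of Sat1.

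Odc1, the first and rate-limiting step of the pathway, fell on each of its probe sets. On probe set 1438761_a_at, its brightest, the MT arrays read 9.78, 9.66, 9.56 and 9.67 on the log2 scale, against 11.11, 11.10, 11.22 and 11.29 on the wild-type arrays. Every MT array lay more than 1 log2 unit below every wild-type array. The log2 difference was -1.52 ± 0.07 (SE, n = 4 arrays per group; limma adjusted p = 8.95e-08), which is 2.86-fold lower in MT. In these bulk samples, fewer cells of a type and less RNA per cell cannot be told apart.

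The other Odc1 probe sets gave differences of similar size. Probe set 1437711_x_at read from 8.34 to 8.54 in MT and from 9.65 to 10.03 in wild type, a log2 difference of -1.45 ± 0.09 (limma adjusted p = 5.26e-07). Its suffix marks probes that may also match other sequences. Probe set 1427364_a_at read 7.45 ± 0.18 in MT and 8.85 ± 0.14 in wild type (SD, n = 4 arrays per group), without overlap, a log2 difference of -1.39 ± 0.10 (limma adjusted p = 1.42e-06). The 95% intervals of the 3 differences overlapped, spanning -1.68 to -1.35, -1.65 to -1.25 and -1.61 to -1.17. Of all probe sets, 0.645% had a lower difference than the brightest one of Odc1.

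Srm, the next enzyme of the pathway, fell by nearly as much on its single probe set, 1421260_a_at. The MT arrays read 9.33, 9.13, 9.01 and 8.95, against 10.58, 10.55, 10.48 and 10.19 on the wild-type arrays. The groups did not overlap, although wild-type array 4 was the lowest of its group. The log2 difference was -1.34 ± 0.11 (limma adjusted p = 2.86e-06), or 2.54-fold lower in MT, and 0.884% of all probe sets had a lower difference.

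**Figure D1:**
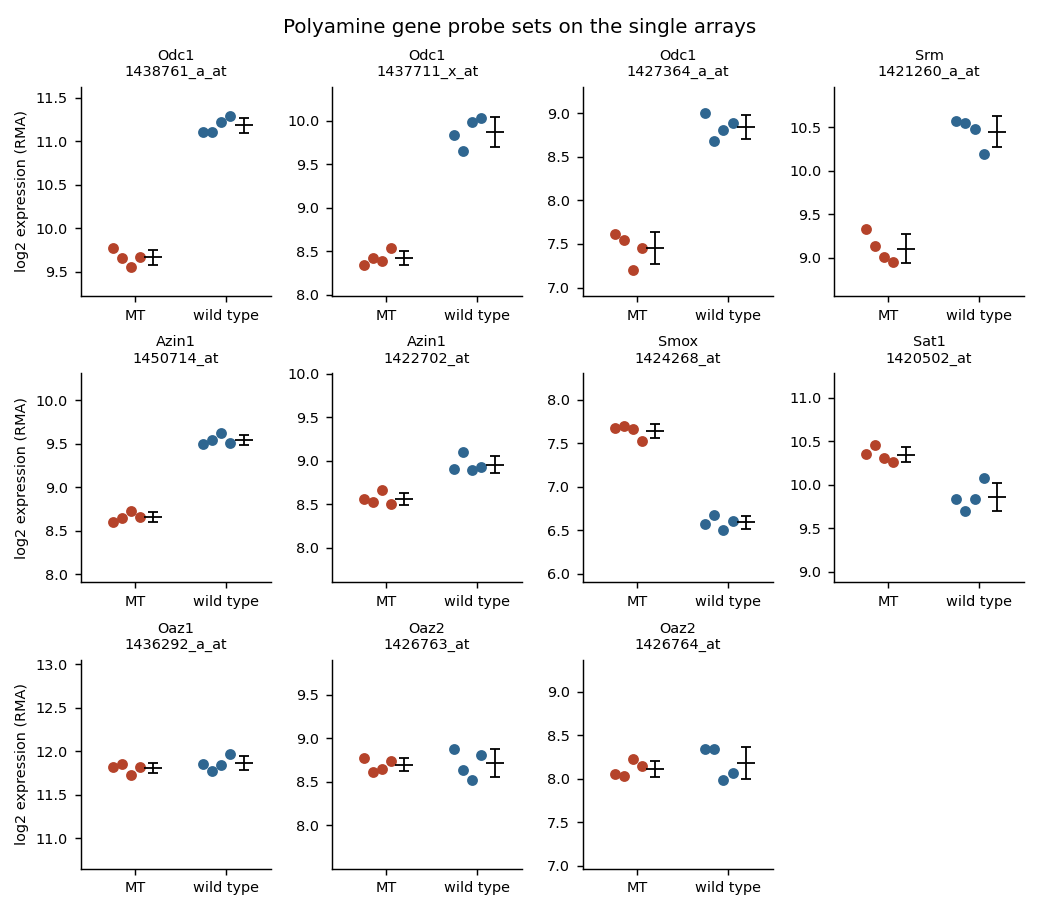
Log2 expression after RMA of the 11 polyamine gene probe sets, with MT arrays on the left (red) and wild-type arrays on the right (blue) of each panel. Points are single arrays, and bars give the mean and SD of 4 arrays. All vertical axes span the same number of log2 units at different levels. Odc1, Srm and Azin1 lie lower in MT, Smox and Sat1 lie higher, and the groups overlap for Oaz1 and Oaz2.

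Azin1, the antizyme inhibitor, fell on both of its probe sets, by unequal amounts. Probe set 1450714_at read 8.60, 8.65, 8.73 and 8.66 on the MT arrays, against 9.50, 9.54, 9.62 and 9.50 on the wild-type arrays. The spread within each group was small beside the gap, and the log2 difference was -0.88 ± 0.06 (limma adjusted p = 1.31e-06), or 1.84-fold lower in MT. Probe set 1422702_at read 8.55, 8.53, 8.66 and 8.51 on the MT arrays, against 8.91, 9.10, 8.89 and 8.93 on the wild-type arrays. Its groups did not overlap either, with a log2 difference of -0.39 ± 0.07 (limma adjusted p = 0.00115). The gap between the probe sets (1450714_at minus 1422702_at) was 0.04 to 0.15 log2 units on the MT arrays and 0.44 to 0.73 on the wild-type arrays. This inequality, tested after its values were seen, had an exact permutation p of 0.0286 (two-sided, 70 assignments), the smallest that 4 arrays against 4 can give. The fall of Azin1 thus had a size that depended on the probe set.

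The antizymes, which restrain ornithine decarboxylase, had no detected difference. Oaz1 on probe set 1436292_a_at read 11.82, 11.86, 11.72 and 11.82 on the MT arrays, against 11.85, 11.77, 11.84 and 11.97 on the wild-type arrays. Its log2 difference was -0.05, with a 95% interval from -0.20 to 0.09 (limma adjusted p = 0.565). The groups overlapped, and the interval excluded a fall of the size measured for Odc1, Srm or the brighter Azin1 probe set.

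Oaz2 did not pass on either of its probe sets. Probe set 1426763_at read 8.77, 8.62, 8.65 and 8.74 on the MT arrays, against 8.88, 8.64, 8.52 and 8.81 on the wild-type arrays, a log2 difference of -0.02 (95% interval -0.21 to 0.17, limma adjusted p = 0.893). Probe set 1426764_at read 8.05 to 8.23 in MT and 7.98 to 8.35 in wild type, a log2 difference of -0.07 (95% interval -0.28 to 0.14, limma adjusted p = 0.61). The wild-type values spanned the MT values on both. The activity of antizymes depends on a frameshift during translation, which these RNA levels do not measure.

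Smox, the spermine oxidase, rose in MT. Its probe set 1424268_at read 7.67, 7.70, 7.66 and 7.52 on the MT arrays, against 6.57, 6.68, 6.50 and 6.61 on the wild-type arrays. The lowest MT array stood well above the highest wild-type array. The log2 difference was 1.05 ± 0.07 (limma adjusted p = 7.37e-07), or 2.07-fold higher in MT, and 2.31% of all probe sets had a higher difference.

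Sat1, the spermidine and spermine acetyltransferase, rose by less. Its probe set 1420502_at read 10.35, 10.46, 10.30 and 10.26 on the MT arrays, against 9.84, 9.70, 9.84 and 10.08 on the wild-type arrays. Wild-type array 4 came nearest to the MT values, yet the groups did not overlap. The log2 difference was 0.48 ± 0.09 (limma adjusted p = 0.00119), or 1.4-fold higher in MT, and 8.35% of all probe sets had a higher difference.

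**Figure D2:**
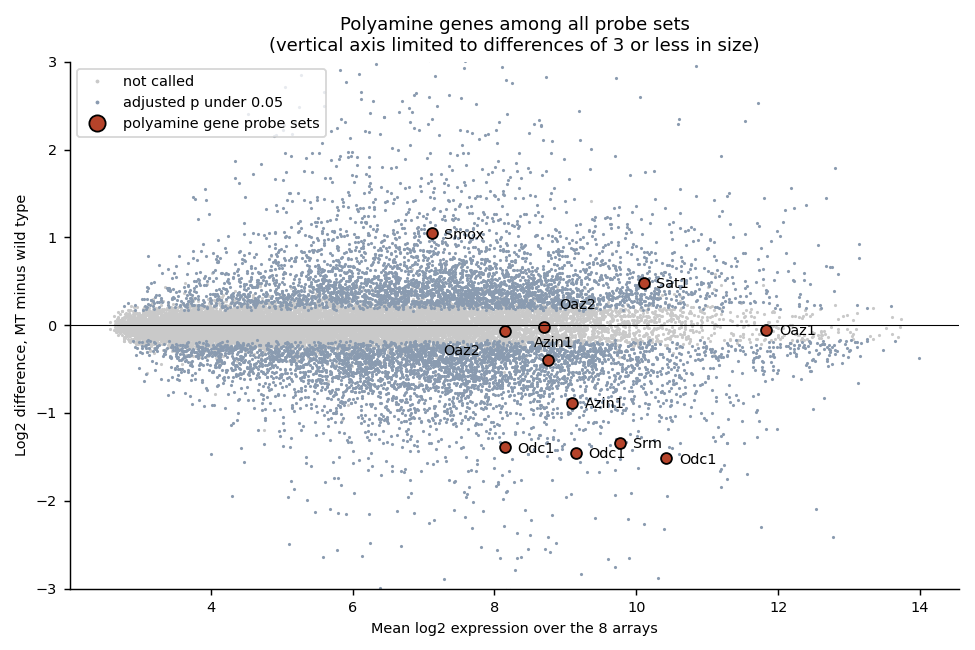
Log2 difference, MT minus wild type, against mean log2 expression over the 8 arrays for the 22626 probe sets, with the 11 polyamine gene probe sets in red. The vertical axis is limited, so the largest differences, such as that of Pbsn at -4.16, are not shown. Odc1 and Srm lie in the lower part of the cloud at -1.34 to -1.52, Smox lies at 1.05, and Oaz1 and Oaz2 lie near 0.

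The member values were all above the 15 control probe sets for bacterial transcripts, since the lowest member value was 6.50. One of these controls read from 5.55 to 5.86 and the others no higher than 4.55. The arrays were alike in overall level, with medians from 6.21 to 6.23, and correlated across probe sets at 0.996 to 0.997 within MT and at 0.992 to 0.994 within wild type. Controls for RNA quality, the log2 value at the 3′ end less that at the 5′ end, were 0.45 to 0.64 in MT and 0.54 to 0.92 in wild type for Gapdh (exact permutation p = 0.0857, two-sided). For Actb they were 0.57 to 0.85 in MT and 0.71 to 1.05 in wild type (exact permutation p = 0.114, two-sided). Markers of the labelled tissue were present, and 8 of 12 luminal and secretory genes had a probe set of their own. Of these, 4 were higher and 4 lower in MT, and their mean log2 level was 10.90 to 11.33 on MT arrays against 12.09 to 12.28 on wild-type arrays. That mean joins opposite changes. Pbsn, Spink1, Azgp1 and Msmb were lower, with log2 differences from -4.16 to -2.09. Krt8, Krt18, Hoxb13 and Cd24a were higher, with log2 differences from 0.26 to 1.13 on their brightest probe sets.

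Marker lists of other cells and of cycling cells were read in the same arrays, where 19.3% of all genes were higher and 20.7% lower. Proliferation genes were higher for 14 of 16, with a mean log2 level of 6.88 to 6.98 in MT and 5.51 to 5.80 in wild type. Smooth muscle genes were lower for 8 of 8 (8.34 to 9.19 in MT, 9.41 to 10.17 in wild type) and fibroblast genes for 6 of 8 (7.29 to 7.83 in MT, 7.98 to 8.61 in wild type). Macrophage genes were higher for 6 of 10 and lower for 1 (7.77 to 8.01 in MT, 6.90 to 7.65 in wild type). T and B cell genes were higher for 3 of 7 (5.11 to 5.92 in MT, 4.90 to 4.96 in wild type), with MT array 2 the highest. Of 7 endothelial genes, 1 was lower (5.20 to 5.25 in MT, 5.08 to 5.45 in wild type). Of the 64 marker genes measured, 11 read no higher than the highest bacterial control (5.86) on any array. They included Bub1 (proliferation), Cd3g and Cd4 (T and B cell) and Tek (endothelial), which had passed. Their highest values on any array were 4.73, 5.23, 5.69 and 5.02, in that order. Those calls thus rest on values near background, among them the only endothelial call. The part of cell make-up in the polyamine gene differences was not tested.

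**Figure D3:**
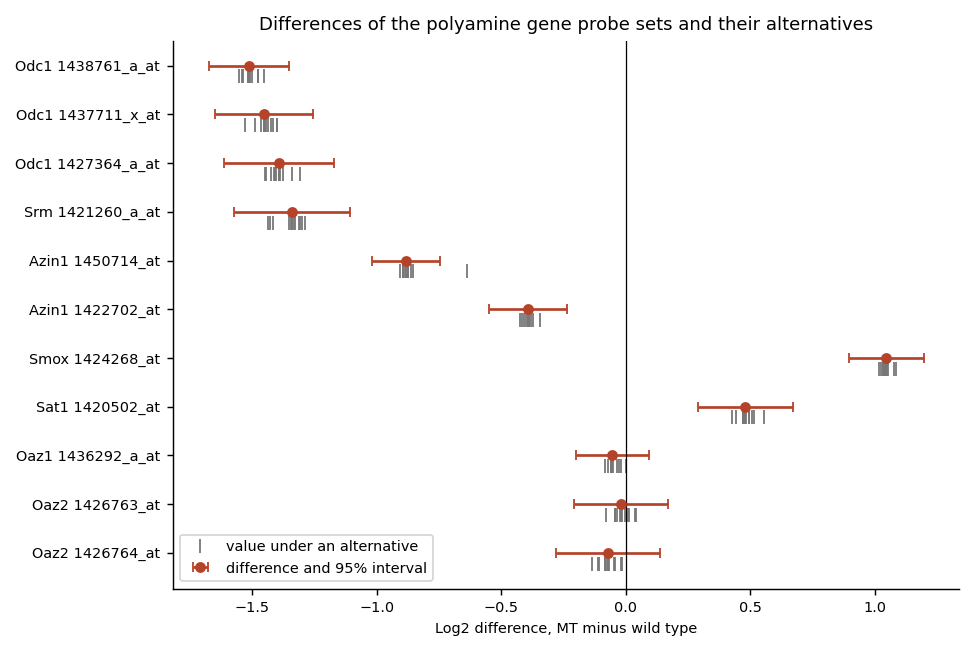
Log2 differences, MT minus wild type, of the 11 polyamine gene probe sets. Red points and bars give the limma estimate with its 95% interval, and grey ticks give the values under the processing alternatives and with single arrays left out. No interval of Odc1, Srm, Azin1, Smox or Sat1 reaches 0, and those of Oaz1 and Oaz2 span it.

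Genes around the pathway were read by the same rule for 6 further lists with 58 genes, of which 43 had a probe set of their own. None of the 7 other polyamine genes, among them the S-adenosylmethionine decarboxylase genes Amd1 and Amd2 and the oxidase Paox, had one, and they were not analysed here. Of 86 probe sets, 16 were higher and 26 lower in MT, or 48.8% against 37.8% of all probe sets. Their median log2 difference was -0.09.

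In the list of ornithine and arginine supply, which covers the substrate of Odc1, 2 of 8 measured genes were higher and 3 lower, and the other 3 did not pass. These counts, and those of the lists that follow, stand beside the 19.3% higher and 20.7% lower over all genes, and with so few genes a list nothing is read from them about the lists. Arg1, the arginase that yields ornithine in the cytosol, read 8.37, 8.30, 8.58 and 8.28 on the MT arrays, against 5.62, 5.97, 5.78 and 5.76 on the wild-type arrays. Its log2 difference was 2.60 ± 0.09 (limma adjusted p = 1.21e-08), or 6.06-fold higher in MT. The wild-type values lay close to the brightest bacterial control, and 1 of 4 was no higher than it. Against the higher of the 2 on each wild-type array, Arg1 was at least 5.81-fold higher. Macrophages are a known source of Arg1, and the macrophage marker list was higher in the same arrays, as given above; its part in the rise was not tested. Arg2, the mitochondrial arginase, read from 9.36 to 9.73 in MT and from 10.07 to 10.27 in wild type, a log2 difference of -0.58 ± 0.09 (limma adjusted p = 0.000313). The arginase genes thus moved in opposite directions.

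Oat and Aldh18a1, which link ornithine to glutamate and proline metabolism, fell. Oat, ornithine aminotransferase, read 9.46, 9.44, 9.38 and 9.40 on the MT arrays, against 10.49, 10.49, 10.47 and 10.54 on the wild-type arrays, a log2 difference of -1.08 ± 0.06 (limma adjusted p = 1.95e-07). Aldh18a1, which makes the precursor of ornithine and proline from glutamate, read from 7.62 to 7.81 in MT and from 8.99 to 9.32 in wild type on 1437325_x_at, a log2 difference of -1.47 ± 0.09 (limma adjusted p = 3.65e-07). All 5 probe sets of Aldh18a1 fell, with log2 differences from -1.66 to -0.34. The smallest fall was on 1437620_x_at, which read 3.97 to 4.53 in MT and 4.52 to 4.72 in wild type. Its groups overlapped, and all its values were below the brightest bacterial control. All of the 5 but 1415836_at carry the suffix that marks probes that may also match other sequences. Gatm, which transfers an amidino group from arginine to glycine and releases ornithine, read from 6.08 to 6.33 in MT and from 4.99 to 5.36 in wild type and rose (limma adjusted p = 1.14e-05). All 4 wild-type values were no higher than the brightest bacterial control, though above the others, and against that control Gatm was at least 1.35-fold higher.

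In the methionine cycle and salvage list, which covers the source of the aminopropyl groups that Srm and Sms add, 2 of 11 measured genes were higher and 5 lower. Gnmt, a glycine methyltransferase that consumes S-adenosylmethionine, read 7.46, 7.43, 7.31 and 7.33 on the MT arrays, against 9.42, 9.57, 9.30 and 9.65 on the wild-type arrays. Its groups were far apart, with a log2 difference of -2.11 ± 0.08 (limma adjusted p = 2.23e-08), or 4.31-fold lower in MT. Enoph1, an enzyme of methionine salvage, had a log2 difference of -0.68 ± 0.08 (limma adjusted p = 7.22e-05) and values from 7.34 to 7.48 in MT against 7.95 to 8.26 in wild type.

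Of the hypusine pathway, which attaches part of spermidine to the translation factor eIF5A, 1 of 3 measured genes was higher and 1 lower. Dhps, the deoxyhypusine synthase that uses spermidine, read 7.66, 7.60, 7.66 and 7.67 on the MT arrays, against 6.91, 6.97, 6.74 and 7.23 on the wild-type arrays. The log2 difference was 0.69 ± 0.09 (limma adjusted p = 0.000172), or 1.61-fold higher in MT. Of 7 measured genes linked to polyamine transport, 2 were higher and 1 lower, and none of their brightest probe sets passed with a change of 0.5 log2 units or more. Dimmer probe sets of 2 transport ATPases did, and these were chosen after their values were seen. Atp13a3 had log2 differences of 0.43 ± 0.09 on its brightest probe set and 0.74 ± 0.10 on the other (limma adjusted p = 0.00363 and 0.000142). Atp13a2 fell on all 3 of its probe sets, with log2 differences of -0.47 ± 0.07 on the brightest, -0.56 ± 0.06 and -0.29 ± 0.10 (limma adjusted p = 0.00023, 2.88e-05 and 0.044). Slc3a2, the transporter subunit with the highest level in that list, rose by 0.39 ± 0.07 (limma adjusted p = 0.00153), with values from 9.80 to 9.95 in MT and from 9.33 to 9.56 in wild type.

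**Figure D4:**
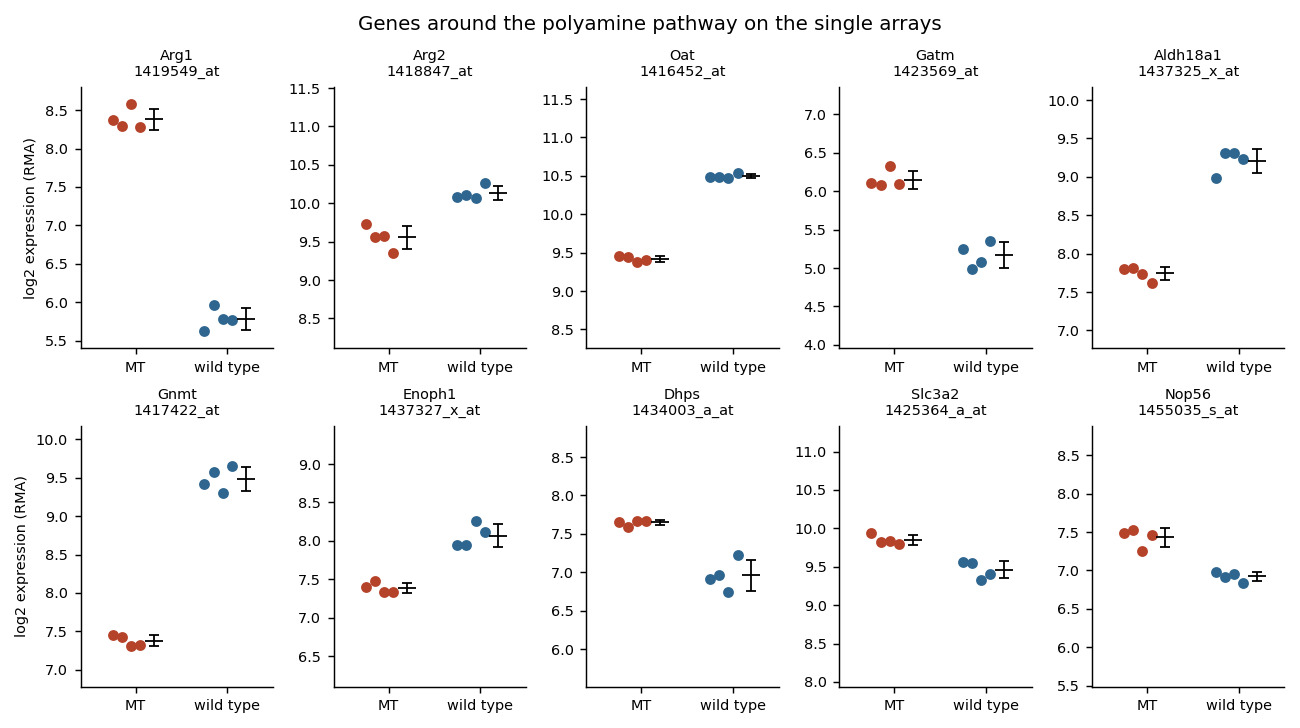
Log2 expression after RMA of the 10 genes named from the lists around the polyamine pathway, with MT arrays on the left (red) and wild-type arrays on the right (blue) of each panel. Points are single arrays, bars give the mean and SD of 4 arrays, and all vertical axes span the same number of log2 units. Arg1, Gatm, Dhps, Slc3a2 and Nop56 lie higher in MT, and Arg2, Oat, Aldh18a1, Gnmt and Enoph1 lie lower.

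The genes whose values followed the brightest Odc1 probe set most closely over the 8 arrays were Sec63, Adk and Slc33a1, with Pearson correlations of 0.999, 0.998 and 0.998. These correlations describe a shared difference between the groups as well as any likeness among arrays of a group. Their log2 differences were -1.12 for Sec63, -1.94 for Adk and -1.11 for Slc33a1. By deviations from the group means, the nearest were Npr3 (0.962), Eppk1 (0.960) and Zbtb2 (0.955). These genes were picked as the highest among all other genes over 8 arrays, a search in which high correlations also arise by chance. Of these, Eppk1 was higher in MT, at a log2 difference of 1.57, and the other two did not pass. The Npr3 probe set averaged 4.03 in MT and 4.24 in wild type, below the brightest bacterial control.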

How the data were processed

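RNA from MT and wild-type ventral prostate was hybridised to Affymetrix arrays, 4 per group, and the labels do not give the number of animals. The authors deposited log2 values made with RMA (background correction, quantile normalization, probe set summary), per the submitters' processing notes; no version is given in the sources. They were used as deposited, without filter or scaling. The number of arrays limits the precision.

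Differences are MT minus wild type. limma 3.58.1 in R 4.3.3 (lmFit and eBayes, default prior, no covariate, two-sided) was fitted to 22626 probe sets, leaving out 64 controls, with Benjamini-Hochberg adjustment over all of them and a threshold of 0.05. The fit was tested on simulated data in which 200 probe sets were changed. Far more probe sets passed in the real data, so that test does not show how the fit performs on them. The platform annotation gave 20380 probe sets a single symbol, 20351 of them with a gene identifier in the RefSeq table. Where a gene is counted once, the probe set with the highest mean stands for it. From the lists, genes were named where that probe set passed at 0.5 log2 units or more, otherwise the gene with the highest mean. Members and lists were chosen with earlier results of these data known. Alternatives were another prior, array weights, a replicate block, scalings, a level filter and gene summaries. Others were unique type probe sets, a stricter threshold and leaving out arrays. Figures used Python 3.11.15 with pandas 2.3.3 and matplotlib 3.10.9.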

Additional observations from a re-analysis of the deposited data

Results flagged for a closer look

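In 2 of 42 groups of 4 arrays tested among the named probe sets, 1 array stood far from the others of its group by Dixon's criterion; chance gives about 1 in 20 groups. None of the 11 polyamine gene probe sets was among them. For Gatm, MT array 3 read 6.33, above the other MT arrays, with a gap of 0.902 of the range. For Dhps, MT array 2 read 7.60, below the other MT arrays, with a gap of 0.836 of the range.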

How the results depend on the processing

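The calls and directions of Odc1, Srm, Azin1, Smox and Sat1 were kept under every alternative that could be computed for each of their probe sets. The log2 difference ran from -1.55 to -1.45 for the brightest Odc1 probe set, from -1.44 to -1.29 for Srm, from -0.91 to -0.64 for the brighter Azin1 probe set, from 1.02 to 1.09 for Smox and from 0.43 to 0.55 for Sat1, with the lowest size for Azin1 where its probe sets were averaged. Oaz1 and both Oaz2 probe sets passed under no alternative. Oaz2 on 1426763_at changed sign within its error, from -0.0810 to 0.0370 with single arrays left out and to 0.0405 with the fourth wild-type and the second MT array both left out, an alternative chosen after seeing the data. Counting 1 probe set per gene, 5088 of 12393 genes, 5 member genes and 21 other pathway genes passed. With the mean of a gene's probe sets the counts were 5112, 5 and 23, and with unique type probe sets alone 5402, 4 and 24, fewer features being tested each time. The unique type was set by the name alone, a number followed directly by _at, and not by a check of what the probes match. Odc1 and Srm had no probe set of that type, so their falls could not be read in that alternative. At an adjusted p under 0.01, 27 other pathway probe sets passed in place of 42. Over all 22626 probe sets, 5951 (26.3%) then passed in place of 8552 (37.8%). With single arrays left out, 7355 to 8377 probe sets passed in place of 8552, and 8 member probe sets each time. The array numbers are shared between the groups, and same-numbered arrays deviated together at correlations of 0.078 to 0.164, over 0.1 for 2 of 4. In addition, 8 of 8 arrays correlated best with their own number. The main test assumed no pairing, so its p-values leave out any link between same-numbered arrays. With the number as a replicate block 8633 probe sets and 8 member probe sets passed. The limma adjusted p was then larger for each of these members, at 6.12e-06 for the brightest Odc1 probe set and 0.00504 for Sat1.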

Other observations

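Myc, a transcription factor known to act on Odc1 and Srm and chosen here after its values were seen, had a log2 difference of 0.01 ± 0.07 (limma adjusted p = 0.922, n = 4 arrays per group), with a mean of 7.64 in MT and 7.63 in wild type. In the list of Myc family factors and growth targets, 2 of 14 genes were higher and 1 lower, and 33.3% of its probe sets passed against 37.8% of all. Nop56, a nucleolar protein of ribosome production, rose by 0.51 ± 0.08 (limma adjusted p = 0.000313). Proteins and polyamine levels were not measured by these arrays.

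Eif5a, the protein that spermidine modifies, also chosen after its values were seen, had a log2 difference of -0.11 ± 0.06 on its brightest probe set (limma adjusted p = 0.208) and of -0.24 ± 0.07 on the other (limma adjusted p = 0.0173).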
